A study of Mus musculus with 12 samples.

Results

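*Prph* (peripherin) and *Sncb* (beta-synuclein) had several times as many reads in every *Mesp1Cre*;*Hira*-/fl mutant heart library as the mean of *Mesp1Cre*;*Hira*+/fl controls of its stage, other than 1 library of *Sncb*, and they were examined with 6 other genes used as neuron markers. The 8 genes (*Prph*, *Sncb*, *Tubb3*, *Stmn2*, *Th*, *Dbh*, *Chrna3* and *Elavl4*) were found by symbol among the 20368 genes of the expression table. *Prph* and *Sncb* were included because of their rise in mutant hearts at E12.5, so their values in that comparison are given as a description with no test. The other 6 were listed as autonomic neuron genes with earlier results of these data known. The question was whether genes of autonomic neurons moved together.

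RNA-seq had been done on hearts of CD1 embryos of stages E11.5 and E12.5, with 3 libraries for each genotype and stage, 12 in all. All embryos carried the *Mesp1Cre* driver, which acts in early mesodermal progenitors of the heart, and 1 floxed *Hira* allele. The other allele was wild type in the controls and null in the mutants. Control cells that underwent recombination thus kept a single functional copy of this histone H3.3 chaperone. Cells outside the *Mesp1Cre* lineage kept a working floxed allele, also in the mutants. The paper names ingressing neural crest among the likely sources of the HIRA protein left in mutant hearts. The number of hearts per library, and whether libraries of a group came from separate embryos, is not given in the sources used here, so p-values measure only the spread between these libraries.

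In the heart, autonomic neurons arise from neural crest cells that migrate in along the vessels and gather in small ganglia. Sympathetic neurons make noradrenaline through the enzymes tyrosine hydroxylase (*Th*), aromatic amino acid decarboxylase (*Ddc*) and dopamine beta-hydroxylase (*Dbh*). Ganglionic neurons of both autonomic branches receive their input through nicotinic receptors that contain the alpha3 subunit (*Chrna3*). The remaining genes code for general neuronal proteins: peripherin (*Prph*) is an intermediate filament of peripheral neurons, *Tubb3* a beta-tubulin, *Stmn2* a regulator of microtubule assembly in growing axons, *Sncb* a presynaptic synuclein, and *Elavl4* an RNA-binding protein.

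The 8 genes lie on 8 different chromosomes of GRCm38. *Prph* spans chr15:99055174-99058978 on the + strand, *Sncb* chr13:54758860-54766595 on the - strand, *Tubb3* chr8:123411424-123422015 on the + strand and *Stmn2* chr3:8509527-8561604 on the + strand. *Th* spans chr7:142892752-142931128, *Chrna3* chr9:55011343-55026559 and *Elavl4* chr4:110203722-110351909, all on the - strand, and *Dbh* spans chr2:27165233-27183200 on the + strand. In the GENCODE vM21 annotation *Tubb3* overlaps the protein-coding locus *Gm20388* on the same strand, without shared exonic bases as annotated, and none of the other 7 overlaps another gene.

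The promoters of 5 of the genes are shown so that 3 of the genes that were higher in E12.5 mutant hearts can be set beside the noradrenergic enzyme genes, which were not. Each run is the 250 bases before the RefSeq start site on GRCm38.p6, read 5' to 3' on the strand of the gene, with motif matches in capitals.
Prph: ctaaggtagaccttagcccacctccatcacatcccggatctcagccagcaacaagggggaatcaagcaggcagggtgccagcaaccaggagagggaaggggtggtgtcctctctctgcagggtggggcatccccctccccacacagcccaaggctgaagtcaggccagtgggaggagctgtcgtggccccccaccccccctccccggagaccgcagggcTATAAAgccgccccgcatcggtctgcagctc
Sncb: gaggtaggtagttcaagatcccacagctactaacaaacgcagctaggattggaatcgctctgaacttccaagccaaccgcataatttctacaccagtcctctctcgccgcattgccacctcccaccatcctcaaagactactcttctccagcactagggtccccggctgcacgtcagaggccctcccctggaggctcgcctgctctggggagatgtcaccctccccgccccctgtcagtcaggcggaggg
Tubb3: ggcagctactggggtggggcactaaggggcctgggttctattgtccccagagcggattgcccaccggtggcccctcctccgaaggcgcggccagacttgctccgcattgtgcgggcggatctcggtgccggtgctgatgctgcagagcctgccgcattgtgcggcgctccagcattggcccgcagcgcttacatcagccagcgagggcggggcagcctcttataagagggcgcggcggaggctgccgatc
Th: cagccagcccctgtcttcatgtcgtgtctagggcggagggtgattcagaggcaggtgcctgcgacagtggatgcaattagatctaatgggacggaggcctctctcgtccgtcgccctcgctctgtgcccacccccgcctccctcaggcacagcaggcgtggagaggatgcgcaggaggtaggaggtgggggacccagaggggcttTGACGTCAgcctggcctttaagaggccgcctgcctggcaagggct
Dbh: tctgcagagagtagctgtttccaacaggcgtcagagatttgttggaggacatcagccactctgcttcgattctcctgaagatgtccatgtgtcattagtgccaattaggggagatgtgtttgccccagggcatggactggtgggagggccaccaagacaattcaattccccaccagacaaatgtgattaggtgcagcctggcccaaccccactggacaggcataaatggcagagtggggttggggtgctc
The 5 motifs searched on both strands were a core promoter element, the box at many start sites (TATAAA), the cAMP response element (TGACGTCA), the GAGA repeat (GAGAGAGA), an E-box (CAGCTG) and the left arm of the RE1 element bound by the repressor REST (TTCAGCACC). The windows lie at chr15:99054924-99055173 (*Prph*), chr13:54766596-54766845 (*Sncb*), chr8:123411303-123411552 (*Tubb3*), chr7:142899996-142900245 (*Th*) and chr2:27165257-27165506 (*Dbh*).

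The capitals in *Prph* mark a TATA box from -31 to -26 of its start, a motif held by 12.4% of the 32817 promoter windows of the genome. Those in *Th* mark a cAMP response element from -45 to -38, a motif of 1.55% of all windows. The windows of *Sncb*, *Tubb3*, *Dbh* and *Chrna3* held none of the 5 motifs. *Elavl4* has 4 windows for alternative starts, of which 2 hold CAGCTG (13.0% of all windows) and 1 holds GAGAGAGA (3.25%). TTCAGCACC, in 0.302% of all windows, was in none of the windows of the 7 genes that have one. Thus none of the 5 motifs was shared by *Prph*, *Sncb* and *Tubb3*.

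Across the 12 libraries, the levels of the 8 genes covered a wide range when set per length of transcript. The mean RPKM over all libraries was 8.68 for *Stmn2* and 7.46 for *Tubb3*, followed by 1.16 for *Prph* and 1.09 for *Sncb*. *Elavl4* had a mean of 0.769 RPKM and *Th* of 0.639, whereas *Dbh* had 0.131 and *Chrna3* 0.0330. The last of these had at most 4 reads in any library. Total counts per library ran from 11994148 to 17483982, and levels of a gene in each library are given as reads or as CPM, reads scaled to a common library size.

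**Figure D1:**
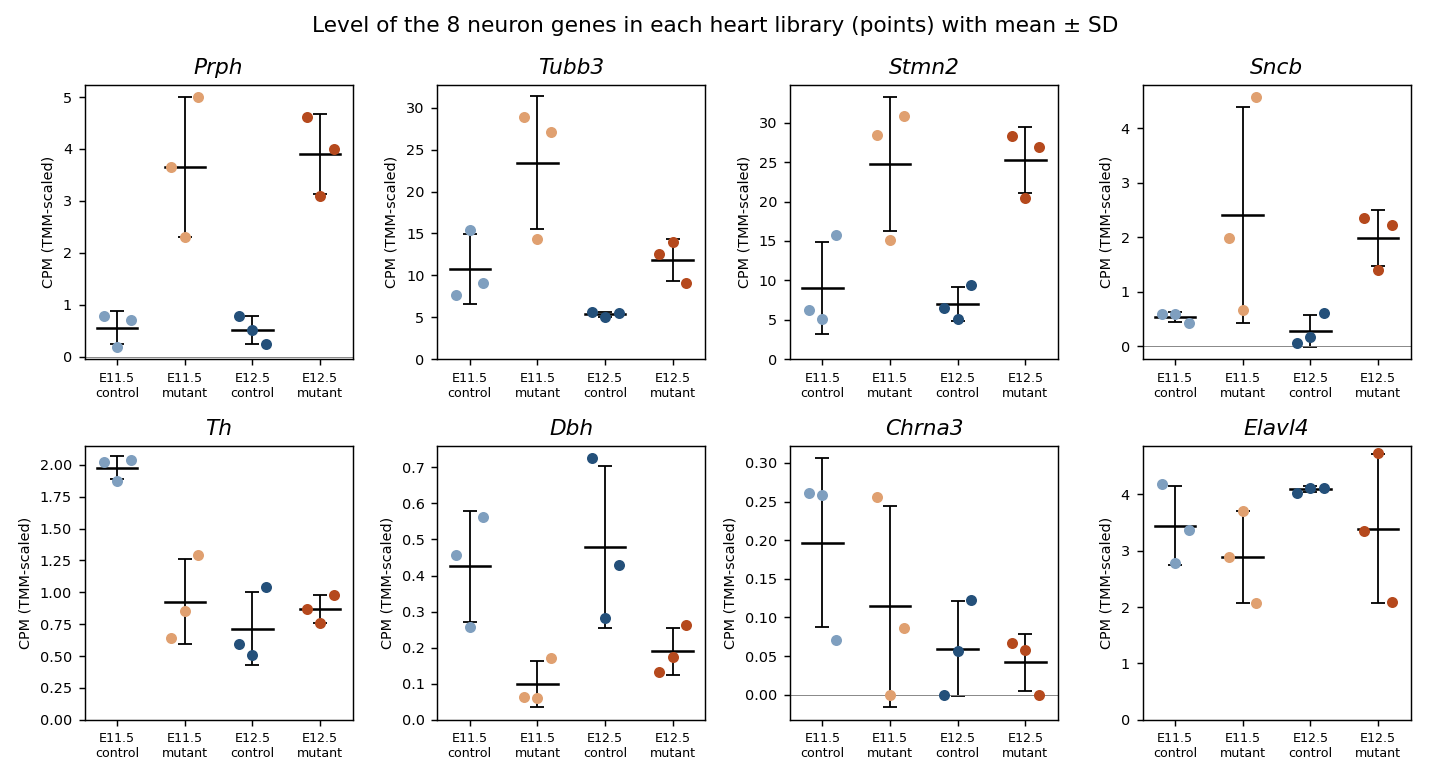
Level of each of the 8 genes in CPM scaled by edgeR's TMM method, on a linear axis. Points are libraries (replicates 1 to 3 from left to right), horizontal lines are means and bars are SD (n = 3). The mutant libraries of *Prph* lie above all control libraries at both stages, those of *Dbh* below them, and those of *Elavl4* among them.

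The label of the embryonic heart held in all libraries: 8 heart muscle genes summed to between 19630.9 and 27346.3 CPM. The label of autonomic neurons was borne out only in part by other genes of such neurons. *Insm1*, a neuroendocrine factor, had at most 2 reads in any library and choline acetyltransferase (*Chat*) at most 3. *Phox2a*, which is needed for noradrenergic differentiation, was detected, with 27, 49 and 13 reads in E11.5 controls, 12, 39 and 15 in E11.5 mutants, 23, 18 and 15 in E12.5 controls and 8, 9 and 5 in E12.5 mutants. Its E12.5 mutant libraries lay below the controls (log2 fold change -1.28, SE 0.41, edgeR's adjusted p = 0.102), which did not pass the test. Of 15 genes of sensory and central neurons, 9 had at most 3 reads in every library. The 8 genes are therefore described here by name and not as a measure of neurons, and in whole hearts fewer cells of a type and less RNA per cell cannot be told apart.

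Some libraries stood apart in genes of neighbouring tissue. The epithelial genes *Epcam* and *Cldn6* had 138 and 75 reads in E11.5 control replicate 1, 94 and 69 in E11.5 mutant replicate 1 and 78 and 50 in E12.5 mutant replicate 3, against at most 33 and 5 in the other 9 libraries. The crest gene *Tfap2b* had 103 reads in E11.5 mutant replicate 1 and 75 in E12.5 mutant replicate 3, and at most 5 elsewhere. The summed level of 7 foregut and lung genes ranged from 2.52 to 14.8 CPM in E11.5 controls, 1.76 to 14.9 in E11.5 mutants, 0.861 to 2.44 in E12.5 controls and 2.04 to 10.01 in E12.5 mutants. Of the genes that define foregut, *Foxa1*, *Foxa2* and *Shh* had at most 2 reads anywhere. *Nkx2-1*, the factor of lung and thyroid buds, had 50 reads in E11.5 mutant replicate 1, 13 in E12.5 mutant replicate 3 and at most 5 elsewhere, and *Sox2* had 4 to 14 reads in every library. Sex also differed between the groups: all 3 E11.5 controls were male, against 1 of 3 libraries in each of the other groups, as judged from 4 Y-linked genes.

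*Hira* itself had 1216, 1334 and 977 reads in E11.5 controls and 1149, 938 and 735 in E11.5 mutants, and 1183, 1533 and 988 in E12.5 controls and 1191, 1217 and 1076 in E12.5 mutants. The counts cover the whole gene, so they do not check the deletion. The paper checked recombination by PCR and by a lack of reads of a *Hira* exon in its RNA-seq. It also reports reduced HIRA protein by western blot.

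At E12.5, the 2 genes that chose the list, *Prph* and *Sncb*, stood several times higher in mutant hearts, and of the general neuronal genes *Stmn2* and *Tubb3* also rose, whereas *Elavl4* did not pass the test. The noradrenergic enzyme *Dbh* had fewer reads in each mutant library than in each control, and *Th* overlapped. A gene was tested if its mean RPKM over the 6 libraries reached 0.5, and it was called if its fold change reached 1.5 with an adjusted p (Benjamini-Hochberg) no higher than 0.05. Of all 12256 genes tested, 3.03% were called, 1.64% as higher and 1.39% as lower. Of the 8 genes, 5 passed the filter and 4 were called higher, of which *Prph* and *Sncb* passed the filter through their mutant libraries and were chosen from this comparison. All 4 had every mutant library above every control, as did 12.1% of the genes tested. *Stmn2* and *Tubb3* were listed with earlier results of these data known, so nothing is read from the count.

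*Prph* had 12, 9 and 4 reads in the 3 E12.5 control libraries and 69, 53 and 61 in the 3 mutant libraries. All mutant libraries were higher than all controls. The level was 0.515 ± 0.273 CPM (SD, n = 3) in controls and 3.90 ± 0.766 in mutants, and the log2 fold change was 2.93 (SE 0.37), or 7.60-fold. *Sncb* had 1, 3 and 10 reads in controls and 35, 24 and 34 in mutants, again without overlap. Its level was 0.283 ± 0.292 CPM in controls and 1.99 ± 0.513 in mutants, with a log2 fold change of 2.78 (SE 0.54). This size rested in part on control replicate 3, the library with 10 reads, without which the log2 fold change was 3.96.

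*Stmn2* was read far more often. It had 98, 90 and 153 reads in the E12.5 control libraries and 424, 351 and 412 in the mutant libraries, and the groups lay far apart. The level was 6.98 ± 2.21 CPM in controls and rose to 25.3 ± 4.20 in mutants (log2 fold change 1.87, SE 0.20, edgeR adjusted p = 0.00127). *Tubb3* had 85, 89 and 89 reads in controls and 188, 239 and 139 in mutants. The groups did not overlap and the controls were close to each other. Its level was 5.37 ± 0.307 CPM in controls and rose to 11.9 ± 2.50 in mutants (log2 fold change 1.16, SE 0.18, edgeR adjusted p = 0.00689). The call of *Tubb3* was lost in a single fit of all 12 libraries (adjusted p = 0.0916).

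*Elavl4*, which is as general a marker of neurons as the genes above, had 61, 73 and 67 reads in E12.5 controls and 50, 81 and 32 in mutants. The mutant libraries spread to both sides of the controls, at 3.39 ± 1.32 against 4.09 ± 0.0543 CPM (log2 fold change -0.25, SE 0.28, edgeR adjusted p = 0.651). The lowest, mutant replicate 3, was also the mutant library with the most *Epcam* reads, and the part of that in this value was not tested.

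The genes of transmitter synthesis and reception were all low at E12.5 and fell below the filter. *Th* had 9, 9 and 17 reads in controls and 13, 13 and 15 in mutants, which overlapped, at 0.715 ± 0.289 and 0.870 ± 0.111 CPM (log2 fold change 0.29 with no filter, SE 0.45). *Dbh* had 11, 5 and 7 reads in controls and 2, 3 and 4 in mutants. Each mutant library of *Dbh* was thus lower than each control, a pattern that 14.2% of the genes tested showed, and with no filter its log2 fold change was -1.27 (SE 0.70, edgeR adjusted p = 0.362). *Chrna3* had 0, 1 and 2 reads in controls and 1, 1 and 0 in mutants, too few to compare.

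At E11.5, a stage other than the one whose rise chose *Prph* and *Sncb*, both were again higher in every mutant library than in every control. *Th* and *Dbh* were lower in every mutant library. All 8 genes were listed with earlier results of these data known, so this stage is not an independent check. None of the 8 genes was called. Of all genes tested, 7.73% had every mutant library above every control and 8.62% every mutant library below. *Stmn2* and *Tubb3* had higher mutant means with overlapping libraries. Few genes passed at this stage: 0.115% of the 12197 tested were called, 14 in number. Of the 8 genes, 6 were tested, and 5 had an unadjusted p under 0.05 (edgeR) against 10.3% of all genes tested. However, *Prph* and *Sncb* passed the filter through their mutant libraries, and *Th* was close to it in mutants, at 0.528 RPKM against 1.13 in controls. DESeq2 called 2.03% of the 12190 genes for which it gave an adjusted p, 248 in number, and 3 of the 8 were among them (*Prph*, *Stmn2* and *Tubb3*).

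*Prph* had 12, 3 and 10 reads in E11.5 controls and 57, 38 and 58 in mutants. The groups did not overlap, and the mutant libraries differed more from each other than the controls did. Its level was 0.560 ± 0.320 CPM in controls and 3.65 ± 1.34 in mutants (log2 fold change 2.68, SE 0.51, edgeR adjusted p = 0.0950). The adjusted p ranged from 0.000573 with DESeq2 to 0.416 without control replicate 3, and it was 0.0329 with no filter. With the filter, *Prph* was tested only because of its mutant libraries.

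*Sncb* had 9, 9 and 6 reads in E11.5 controls and 31, 11 and 53 in mutants. The controls were close together, whereas the mutant libraries differed widely from each other and the lowest of them came near the controls. The level was 0.530 ± 0.0946 CPM in controls and 2.41 ± 1.98 in mutants (log2 fold change 2.13, SE 0.67, edgeR adjusted p = 0.285). Without mutant replicate 3, the log2 fold change was 1.30. With sex in the model, where the effect rests on mutant replicate 3 alone, it was 3.08.

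*Stmn2* had 96, 79 and 224 reads in E11.5 controls and 443, 248 and 359 in mutants. Control replicate 3 reached the range of the mutants once scaled for depth, with 15.7 CPM against 15.1 in the lowest mutant. The means were 9.03 ± 5.82 and 24.8 ± 8.51 CPM (log2 fold change 1.46, SE 0.43, edgeR adjusted p = 0.249), and without that control the log2 fold change was 2.12. *Tubb3* had 117, 239 and 130 reads in controls and 451, 236 and 315 in mutants, with control replicate 2 above the lowest mutant. Its means were 10.7 ± 4.14 and 23.5 ± 7.95 CPM (log2 fold change 1.12, SE 0.33, edgeR adjusted p = 0.246). Without replicate 1 of both groups, the 2 E11.5 libraries with the most *Epcam* reads, the log2 fold change was 0.76 for *Tubb3*, 1.15 for *Stmn2*, 2.33 for *Sncb* and 3.02 for *Prph*.

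*Th*, the rate-limiting enzyme of catecholamine synthesis, went the other way. It had 31, 29 and 29 reads in E11.5 controls and 10, 14 and 15 in mutants, and the groups did not overlap. The level was 1.98 ± 0.0907 CPM in controls and 0.928 ± 0.332 in mutants (log2 fold change -1.11, SE 0.37, unadjusted p = 0.0144, edgeR adjusted p = 0.315), which did not pass the test. With sex as a covariate the genotype effect rests on mutant replicate 3 alone, the only male mutant library, since all controls were male. In that fit the log2 fold change was -0.61 for *Th*, 3.14 for *Prph*, 1.78 for *Stmn2*, 1.33 for *Tubb3* and -0.73 for *Elavl4*. It thus does not decide the part of sex. *Dbh*, the enzyme that turns dopamine into noradrenaline, had 7, 4 and 8 reads in controls and 1, 1 and 2 in mutants, also without overlap. Below the filter, its log2 fold change was -2.09 (SE 0.87, edgeR adjusted p = 0.464).

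*Elavl4* had 64, 43 and 48 reads in E11.5 controls and 45, 61 and 24 in mutants, which overlapped (log2 fold change -0.24, SE 0.31, edgeR adjusted p = 0.896). *Chrna3* had 4, 4 and 1 reads in controls and 4, 0 and 1 in mutants. The subunit genes next to it in the genome were also low, with at most 6 reads for *Chrna5* and 16 for *Chrnb4* in any library, and their groups overlapped at both stages.

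**Figure D2:**
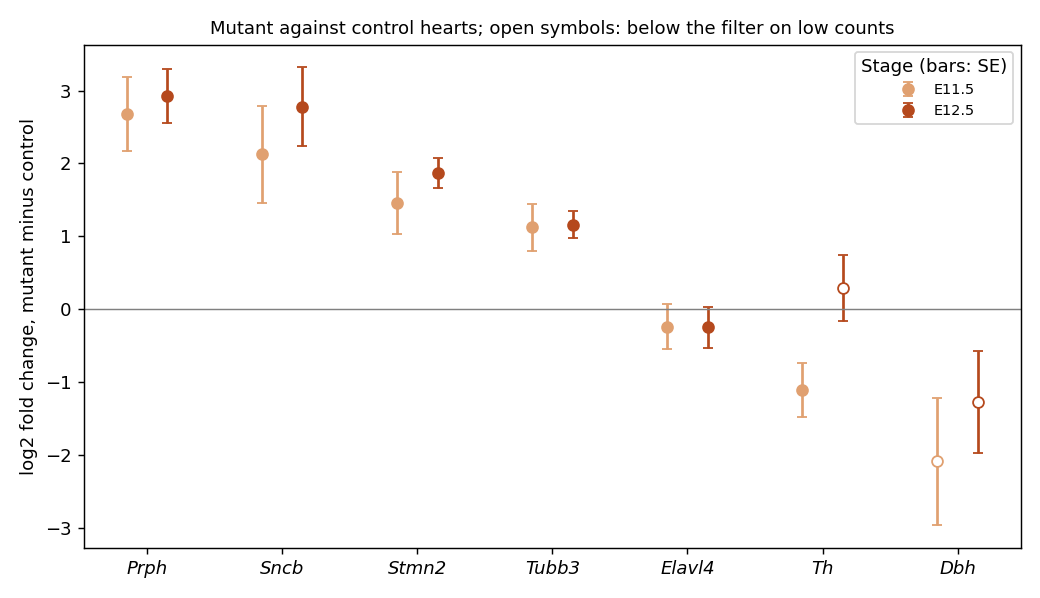
Log2 fold change of mutant against control hearts for 7 of the genes at E11.5 (light) and E12.5 (dark), with bars for SE; *Chrna3* is left out because of its low counts. *Prph*, *Sncb*, *Stmn2* and *Tubb3* lie between 1.12 and 2.93 at both stages, *Elavl4* near 0, and *Th* at E11.5 and *Dbh* at both stages below -1.

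The effect of the genotype was not shown to differ between the stages for any of the genes. In the test of the difference over all 12 libraries, 0 of 12270 genes passed (edgeR) and 4.5% had an unadjusted p under 0.05, whereas DESeq2 called 43 (0.38% of those with an adjusted p), none of them among the 8. The effect on *Th* was 1.39 higher on the log2 scale at E12.5 than at E11.5 (SE 0.51, unadjusted p = 0.0170, edgeR adjusted p = 0.954). For *Stmn2* the difference was 0.40 (SE 0.54), for *Tubb3* 0.02 (SE 0.40) and for *Elavl4* -0.02 (SE 0.43). For *Prph* and *Sncb*, given with no test, it was 0.23 (SE 0.68) and 0.65 (SE 0.996).

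From E11.5 to E12.5, *Th* and *Tubb3* fell in control hearts, by calls that did not hold without some of the libraries. *Th* fell by 1.46 on the log2 scale (SE 0.37, edgeR adjusted p = 0.0357), from 1.98 to 0.715 CPM, and *Tubb3* fell by 1.001 (SE 0.26, edgeR adjusted p = 0.0363), from 10.7 to 5.37 CPM. In this comparison 5.31% of the 12250 genes tested were called, 2.49% as lower, and 4 of the 8 genes were tested. Of these, *Th* passed the filter through its E11.5 libraries, with a mean of 1.13 RPKM there and 0.407 in E12.5 controls. The call of *Th* was lost without control replicate 1 or 3 of E11.5 (edgeR adjusted p = 0.0786 and 0.0908). It was also lost without replicate 1 or 2 of E12.5 (0.151 and 0.128). That of *Tubb3* was lost without replicate 3 of E11.5 (0.0684) or replicate 1, 2 or 3 of E12.5 (0.142, 0.124 and 0.0623). With sex as a covariate the stage effect rests on E12.5 control replicate 3 alone, the only male library of that group. It was then -0.91 for *Th* and -0.97 for *Tubb3*, and this fit does not decide whether the calls depend on sex. Sex and stage were partly confounded in the controls, and their parts cannot be told apart.

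In mutant hearts none of the 6 genes tested was called from E11.5 to E12.5, where 0.523% of 12237 genes were. *Th* was level, with 0.928 and 0.870 CPM (log2 fold change -0.06, SE 0.39). *Tubb3* had a log2 fold change of -0.97 (SE 0.28, edgeR adjusted p = 0.264) with all E12.5 libraries below all E11.5 libraries, as had 8.46% of the genes tested, and DESeq2 called it (adjusted p = 0.0398), as it did 1.85% of genes. *Stmn2* stood at 24.8 and 25.3 CPM at the successive stages, and *Prph* at 3.65 and 3.90 CPM. The comparisons between stages share their libraries with those between genotypes.

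In the order of levels over the 4 groups, *Prph* was highest in E12.5 mutants, then in E11.5 mutants, E11.5 controls and E12.5 controls. Both mutant groups lay within the spread of each other, as did both control groups, and the step between them was the only one wider than the spread. *Stmn2* had the same order of means, with 1 E11.5 control library in the range of the mutants. *Sncb* stood at 2.41 CPM in E11.5 mutants, 1.99 in E12.5 mutants, 0.530 in E11.5 controls and 0.283 in E12.5 controls, and the step between E12.5 mutants and E11.5 controls was the only one without overlap. *Tubb3* was highest in E11.5 mutants, with E12.5 mutants and E11.5 controls at 11.9 and 10.7 CPM not apart, and E12.5 controls lowest. *Th* was highest in E11.5 controls, and the other 3 groups, at 0.928, 0.870 and 0.715 CPM, lay within their spread. *Dbh* was highest in E12.5 controls (0.479 CPM), then E11.5 controls (0.426), E12.5 mutants (0.190) and E11.5 mutants (0.0990), with overlap between each pair of neighbours. The groups of *Elavl4*, at 4.09, 3.44, 3.39 and 2.89 CPM from E12.5 controls to E11.5 controls, E12.5 mutants and E11.5 mutants, overlapped from each to the next.

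To see whether the genes varied together within a group, which the choice of the genes did not use, the deviation of each library from its group mean was correlated for all 28 pairs, on log2(CPM + 0.5) over the 12 libraries. Of the 28 Pearson correlations, 15 were positive and 13 negative, with a median of 0.06. None passed an exact permutation test within groups after Benjamini-Hochberg adjustment over the 28 pairs, and none had an unadjusted p under 0.05. The test could have given a p as small as 0.000772. The lowest p was 0.0833, for *Sncb* with *Elavl4* (r = -0.60, rho = -0.38, exact permutation p for rho = 0.313, adjusted p for r = 0.648), which was -0.33 without the 2 libraries farthest from the median.

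The highest correlation was that of *Sncb* with *Th* (r = 0.66, rho = 0.69, exact permutation p = 0.160 and 0.0787, adjusted p for r = 0.648), which was 0.71 without the 2 libraries farthest from the median. *Prph* with *Dbh* followed (r = 0.62, rho = 0.63, exact permutation p = 0.0895 and 0.0849, adjusted p for r = 0.648), at 0.50 without such libraries. *Prph* with *Sncb* had r = 0.36 (rho = 0.27, exact permutation p = 0.451 and 0.488, adjusted p for r = 0.798), and with *Tubb3* r = -0.06. *Th* with *Dbh*, which act in the same pathway, had r = 0.33 (rho = 0.38, exact permutation p = 0.461 and 0.349, adjusted p for r = 0.798). Among the genes with more reads, *Tubb3* with *Stmn2* had r = 0.10 (rho = 0.18, exact permutation p = 0.884 and 0.782, adjusted p for r = 0.902). *Elavl4* had r = -0.23 with *Tubb3* and -0.32 with *Stmn2* (exact permutation p = 0.552 and 0.326). Counts of *Prph*, *Sncb*, *Th*, *Dbh* and *Chrna3* were under 20 in many libraries, and the part of depth in these correlations was not tested.

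**Figure D3:**
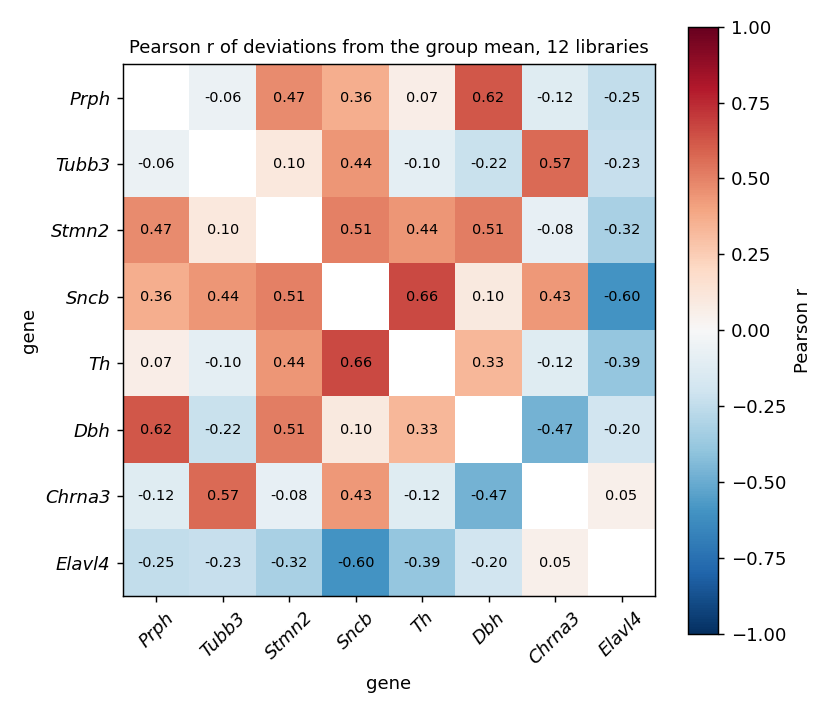
Pearson r between genes, of the deviations of log2(CPM + 0.5) from the mean of each group, over 12 libraries. Red cells are positive and blue cells negative; the 28 values range from -0.60 to 0.66, and none passed the test after adjustment.

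Of the intermediate filament genes, *Nefl*, *Nefm*, *Nefh*, *Ina*, *Vim*, *Des* and *Gfap* were examined as relatives of *Prph*, and none was called at either stage. Keratin genes were not examined here, and the paper reports *Krt8* and *Krt19* as upregulated in mutant hearts. Among the neurofilament genes that build neuronal intermediate filaments with peripherin, *Nefl* had 96, 90 and 65 reads in E12.5 controls and 64, 73 and 83 in mutants (log2 fold change -0.13, SE 0.22, edgeR adjusted p = 0.789), and *Nefm* had 52, 49 and 19 against 20, 25 and 43 (-0.38, SE 0.41, edgeR adjusted p = 0.640). *Nefh* and *Ina* were below the filter, *Ina* with at most 4 reads in any library. At E11.5 the log2 fold changes were 0.23 for *Nefl* (SE 0.20) and 0.52 for *Nefm* (SE 0.38), with overlapping libraries. *Vim* and *Des*, the intermediate filaments of mesenchyme and muscle, had log2 fold changes of 0.12 (SE 0.07) and -0.09 (SE 0.09) at E12.5, and glial *Gfap* had at most 10 reads in any library.

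*Sncg* (gamma-synuclein), a relative of *Sncb*, had 32, 15 and 38 reads in E12.5 controls and 63, 61 and 47 in mutants, higher in each (log2 fold change 1.06, SE 0.34, edgeR adjusted p = 0.101), and did not pass the test. At E11.5 its libraries overlapped, with a log2 fold change of 0.16 (SE 0.44).

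In a list of 35 other pan-neuronal genes, 18 were tested at each stage. At E12.5, 2 were called higher and 1 lower, against 1.64% and 1.39% of all genes tested, and the median log2 fold change was 0.17 against 0.00 for all genes tested. *Crmp1*, a mediator of semaphorin signalling in axons, had 322, 408 and 309 reads in E12.5 controls and 717, 780 and 574 in mutants (log2 fold change 1.06, SE 0.12, edgeR adjusted p = 0.00127). It had 288, 402 and 207 reads in E11.5 controls and 824, 756 and 586 in mutants, without overlap, at a log2 fold change of 1.33 (SE 0.20, edgeR adjusted p = 0.0701). *Stmn4*, a relative of *Stmn2*, had 238, 210 and 289 reads in E12.5 controls and 427, 543 and 499 in mutants (log2 fold change 1.05, SE 0.14, edgeR adjusted p = 0.00287). Its E11.5 libraries overlapped (log2 fold change 0.13, SE 0.31).

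Of the 4 pan-neuronal genes of highest mean RPKM, *Stmn4* was the only one called. *Uchl1*, a deubiquitinating enzyme, had a log2 fold change of 0.13 at E12.5 (SE 0.10, edgeR adjusted p = 0.468). *Gap43*, a growth cone protein, and *Dpysl3*, a relative of *Crmp1*, passed the adjusted p at E12.5 but not the fold, with 0.45 (SE 0.09, edgeR adjusted p = 0.0169) and -0.43 (SE 0.10, edgeR adjusted p = 0.0371). At E11.5 none of the 18 was called, with a median of 0.17 against -0.01 for all genes. The summed level of the 31 measured list genes ran from 449 to 601 CPM in E11.5 controls, 529 to 634 in E11.5 mutants, 580 to 700 in E12.5 controls and 590 to 676 in E12.5 mutants, so the ranges overlapped. The X-linked genes *Dcx*, *Syp*, *Syn1* and *L1cam* were not in the comparisons and were not tested.

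None of the 11 autonomic transcription factors was called at either stage, and 8 were tested at each. The 4 most abundant, *Hand2*, *Sox4*, *Hand1* and *Sox11*, are also expressed in the heart wall, and their E12.5 log2 fold changes were -0.06 (SE 0.09), -0.03 (SE 0.10), 0.36 (SE 0.13) and 0.02 (SE 0.08). *Hand1*, which specifies the left ventricle, had an adjusted p of 0.131 (edgeR). *Gata2*, a factor of sympathetic neurons and of blood and endothelial cells, was higher in each mutant library at both stages without passing the test, at 24.2 ± 1.94 against 13.0 ± 2.73 CPM at E11.5 (log2 fold change 0.89, SE 0.18, edgeR adjusted p = 0.116) and 21.8 ± 3.997 against 15.1 ± 1.51 at E12.5 (0.54, SE 0.14, edgeR adjusted p = 0.0545). *Isl1* had 134, 160 and 187 reads in E11.5 controls and 124, 11 and 32 in mutants, lower in each mutant library once scaled for depth (log2 fold change -1.49, SE 0.63, edgeR adjusted p = 0.460). In controls this gene, a factor of second heart field progenitors and of autonomic neurons, fell by 1.16 on the log2 scale from E11.5 to E12.5 (SE 0.22, edgeR adjusted p = 0.0189). That call was lost in a single fit of all libraries (edgeR adjusted p = 0.160) and without E11.5 control replicate 3 (0.0563). It was also lost without E12.5 control replicate 1 or 2 (0.0940 and 0.0883). With sex in the model, the stage effect rests on E12.5 control replicate 3 alone, and it was -0.92 for *Isl1*.

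Of 10 noradrenergic genes other than *Th* and *Dbh*, 7 were tested and none was called between genotypes at either stage. *Ddc*, the enzyme that acts between *Th* and *Dbh*, was expressed at 98.0 ± 8.72 CPM in E11.5 controls and 133 ± 12.7 in E11.5 mutants (log2 fold change 0.44, SE 0.13, edgeR adjusted p = 0.244). It was thus far more abundant than *Th*, and it was higher in each E11.5 mutant library than in each control. At E12.5 its log2 fold change was 0.17 (SE 0.17). *Pnmt*, the enzyme that makes adrenaline and is expressed in the embryonic heart itself, had 81, 90 and 68 reads in E11.5 controls and 47, 48 and 54 in mutants, without overlap (log2 fold change -0.60, SE 0.27, edgeR adjusted p = 0.498). From E11.5 to E12.5 in controls, *Ddc* rose by 0.68 (SE 0.15, edgeR adjusted p = 0.0270) and *Pnmt* fell by 1.08 (SE 0.27, edgeR adjusted p = 0.0339). With sex in the model, the stage effect rests on E12.5 control replicate 3 alone, and it was -0.75 for *Pnmt* and 1.02 for *Ddc*. That library had the highest *Ddc* level of the E12.5 controls, with 198 CPM against 138 and 136. Both calls were lost without E11.5 control replicate 1 or 3 or E12.5 control replicate 1 or 2, with adjusted p from 0.0653 to 0.136, and *Ddc* stood at 0.48, below the fold, without E12.5 control replicate 3. *Gch1*, which makes the cofactor of tyrosine hydroxylase, had a log2 fold change of 0.02 (SE 0.13) at E12.5.

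Of 12 cholinergic genes, 2 were tested at E12.5, *Ache* and *Chrna7*, and neither was called. *Ache*, acetylcholinesterase, was higher in each mutant library at both stages, with log2 fold changes of 1.01 at E11.5 (SE 0.23, edgeR adjusted p = 0.152) and 0.41 at E12.5 (SE 0.14, edgeR adjusted p = 0.121). *Sst* reached 22 reads in E11.5 mutant replicate 1, one of the libraries with high *Epcam*, and at most 3 elsewhere.

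Of 14 neurotrophic signalling genes, 5 were tested at E12.5 and 2 were called, both lower, against 1.39% called lower of all genes tested. *Ntf3*, neurotrophin 3, had 66, 74 and 87 reads in E12.5 controls and 32, 38 and 24 in mutants (log2 fold change -1.21, SE 0.24, edgeR adjusted p = 0.0184). *Gfra1*, the co-receptor of the growth factor GDNF, had 57, 70 and 93 reads in controls and 29, 42 and 23 in mutants (log2 fold change -1.16, SE 0.27, edgeR adjusted p = 0.0353). The groups of both genes did not overlap. At E11.5 the libraries of both overlapped, with log2 fold changes of -0.63 (SE 0.32, edgeR adjusted p = 0.569) and -1.02 (SE 0.56, edgeR adjusted p = 0.611). *Ngfr* and *Nrtn* had log2 fold changes of 0.22 (SE 0.24) and -0.46 (SE 0.32) at E12.5. The median of the 5 was -0.50.

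Among 12 genes of Schwann cell precursors and neural crest, 4 were tested at E12.5 and 1 was called higher, against 1.64% of all genes tested. *Dhh*, desert hedgehog, a ligand made by Schwann cells and by endothelial cells, had 51, 60 and 54 reads in E12.5 controls and 117, 117 and 82 in mutants (log2 fold change 1.004, SE 0.20, edgeR adjusted p = 0.0186). At E11.5 it had 41, 44 and 65 reads against 125, 80 and 93, without overlap (log2 fold change 1.05, SE 0.31, edgeR adjusted p = 0.249). *Ednrb* and *Erbb3* had log2 fold changes of 0.18 (SE 0.14) and 0.03 (SE 0.15) at E12.5. *Sox10*, which defines this lineage, had 38 reads in E12.5 mutant replicate 2 and at most 8 in any other library, and *Foxd3* had 8 there. Of the 3 E12.5 mutants, that library had the lowest *Prph*, *Sncb* and *Stmn2* reads and the highest *Tubb3* and *Elavl4* reads.

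The summed level of the 11 measured crest and Schwann genes ranged from 162 to 201 CPM in E12.5 controls and from 178 to 247 in E12.5 mutants. At E11.5 it ranged from 149 to 164 CPM in controls and from 121 to 208 in mutants. The ranges overlapped at both stages, and the part of such cells in the levels of the 8 genes was not tested.

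*Rest*, the repressor of neuronal genes in other tissues, had 585, 627 and 529 reads in E12.5 controls and 539, 601 and 485 in mutants (log2 fold change -0.03, SE 0.10, edgeR adjusted p = 0.869). At E11.5 it had 238, 491 and 229 reads in controls and 542, 548 and 110 in mutants, an uneven spread with overlap. None of its cofactors *Rcor1*, *Rcor2* and *Sin3a* was called at either stage.

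**Figure D4:**
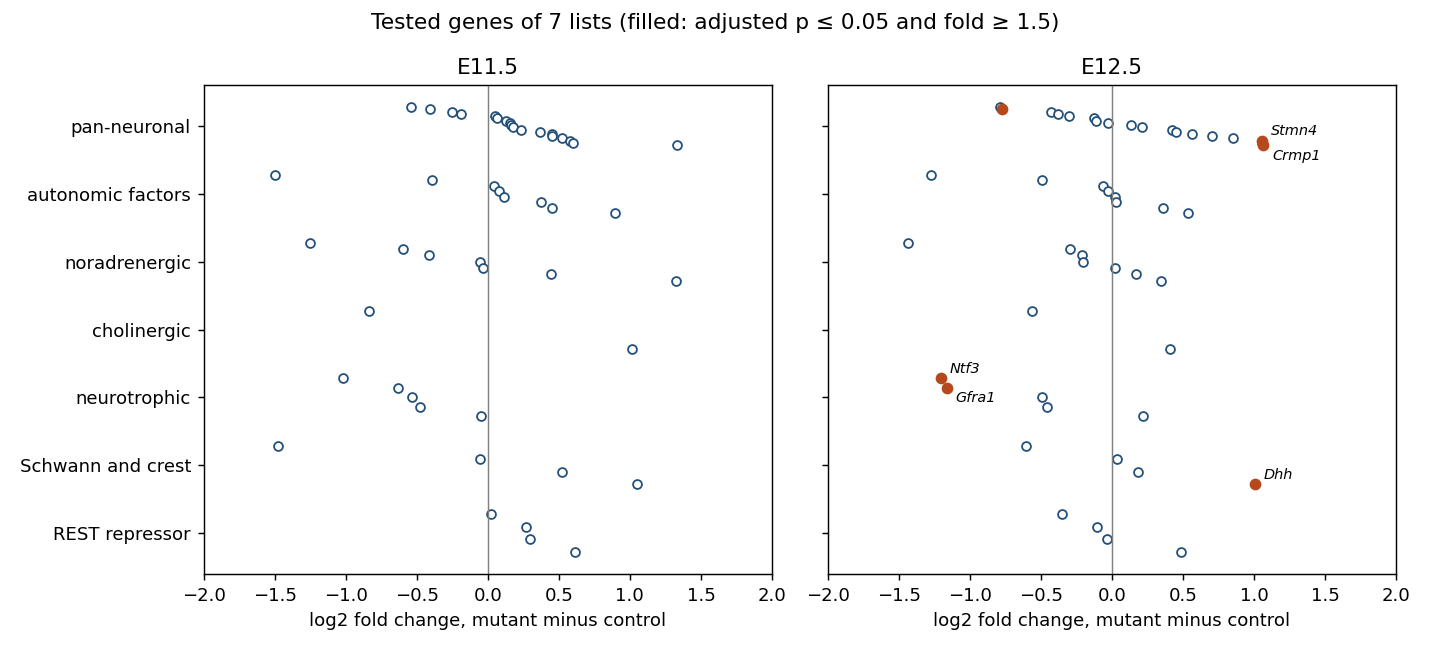
Log2 fold change of mutant against control hearts for the tested genes of 7 lists at E11.5 (left) and E12.5 (right). Each circle is a gene, spread vertically within its list for legibility; filled circles passed an adjusted p of 0.05 and a fold of 1.5. At E12.5 the named ones are *Crmp1*, *Stmn4* and *Dhh* (higher) and *Ntf3* and *Gfra1* (lower), and at E11.5 none is filled.

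The genes whose level over the 12 libraries was most like that of *Prph*, among 12423 genes and by Pearson r of log2(CPM + 0.5), were *Rpp25* (r = 0.955), *Rragd* (0.951), *Fbxo2* (0.950), *Akr1c13* (0.949) and *Mgst2* (0.948). None of them is in the lists of neuronal genes. *Akr1c13*, an aldo-keto reductase, had 20, 17 and 14 reads in E12.5 controls and 65, 65 and 77 in mutants, and 18, 19 and 21 in E11.5 controls and 78, 77 and 109 in mutants. *Fbxo2*, an F-box protein that binds glycoproteins, had 5, 13 and 2 reads in E12.5 controls and 28, 24 and 22 in mutants. The genes most like *Sncb* were *Muc2* (r = 0.969), *Nr4a1* (0.942), *E130012A19Rik* (0.938), *Wfdc2* (0.925) and *Pltp* (0.921), also outside the lists. *Muc2* shared the uneven E11.5 mutant levels of *Sncb*, with 46, 23 and 73 reads, against 26, 20 and 15 in controls. These correlations are a description, since all 12 libraries and their 4 groups enter them and the group difference chose both genes.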

How the data were processed

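RNA was measured by paired-end RNA-seq in 12 heart libraries, 3 for each of 4 groups. Per the labels, reads were aligned with Bowtie2 to mm10 and normalised with DESeq. The counting program, annotation and use of strand are not given in the sources used here, so reads of overlapping and antisense genes cannot be told apart.

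The values that the authors deposited under the name RPKM were treated as a score, since they equal whole counts times a gene length times a library factor. The authors also deposited expected count values, the average counts of each group, which are whole after multiplying by 3 for 100% of genes. From both, whole counts were recovered for all 17827 genes with reads (tolerance 0.001), and these gave back 100% of the averages. Fold changes, z scores and p-values in the deposited comparisons hold the authors' own results and were not used.

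Counts were scaled by TMM and tested with edgeR 4.0.16 (quasi-likelihood test, R 4.3.3). Genes entered a fit if their mean RPKM there, from TMM-scaled counts and the authors' gene lengths, reached 0.5. Calls needed a fold change of 1.5 or more and an adjusted p (Benjamini-Hochberg, over all genes tested) of 0.05 or less, or the latter alone for the difference between stages. Standard errors were derived from edgeR's F statistic. Values of genes below the filter come from the fit with no filter. Levels are CPM with TMM over all 12 libraries. The scripts were tested on simulated data.

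The members and lists were chosen with earlier results of these data known. Besides the 8 genes, the genes named are *Hira*, the relatives of *Prph* and *Sncb*, *Chrna5* and *Chrnb4*, the called genes of each list (at most 6) with the 4 of highest mean RPKM, and the 5 genes most like *Prph* and *Sncb*. Genes named beyond these were picked with their values in view. Some genes that this rule names are not reported here. Promoters are from RefSeq on GRCm38.p6, with an entry for 7 of the 8 genes (all but *Stmn2*). Alternatives were no filter, a filter at 5 RPKM, scaling by median ratios, DESeq2 1.42.0, each library left out, the replicate number as a block, sex as a covariate (male at 100 or more reads on 4 Y-linked genes), no fold threshold, all 12 libraries in a single fit and pseudocounts of 0.1 and 1. Leaving out replicate 1 of both E11.5 groups was added after seeing the data. Reads of a library are not independent molecules, so counts of few reads carry at least their counting error.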

Additional observations from a re-analysis of the deposited data

How the results depend on the processing

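The direction and call of *Stmn2* at E12.5 held in all 15 settings, with log2 fold changes from 1.68 to 2.15, and those of *Tubb3* in 14 of 15. The log2 fold change at E12.5 ran from 2.60 to 3.34 for *Prph* and from 2.35 to 3.96 for *Sncb* over all settings. Both genes were chosen from this comparison, so passing the thresholds in a setting is no support for either. *Sncb* did not pass them in every setting (10 of 14). At E11.5 the log2 fold change ran from 2.27 to 3.14 for *Prph* and from -1.39 to -0.61 for *Th*, which was called in no setting. The values 3.14 and -0.61 came from the fit with sex, which rests on mutant replicate 3 alone.

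With a filter at 5 RPKM, the genes called were 161 at E12.5 (2 of the 8, *Stmn2* and *Tubb3*, the others being below the filter), 6 at E11.5, 395 in controls with stage (0 of the 8) and 27 in mutants with stage. With no filter they were 73 at E11.5 (1 of the 8, *Prph*) and 119 in mutants with stage. With no fold threshold they were 628 at E12.5 and 1390 in controls with stage. In a single fit of all 12 libraries they were 127 at E12.5 (2 of the 8), 229 at E11.5 (1), 345 in controls with stage (1) and 124 in mutants with stage. DESeq2 called 248 genes at E11.5 (3 of the 8), 43 for the difference between stages and 226 in mutants with stage (1, *Tubb3*). Adding sex to the model gave 39 genes at E11.5 and 19 in controls with stage, with 0 of the 8. Without replicate 1 of both E11.5 groups, 0 genes were called at E11.5 (edgeR), with *Prph* at an adjusted p of 0.220. The causes of these shifts were not tested, apart from the filters, which change which genes are tested.

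Leaving out each library in turn gave 186 to 383 genes at E12.5 (3 to 4 of the 8), 0 to 15 at E11.5, 0 to 10 for the difference between stages, 45 to 1407 in controls with stage (0 to 2 of the 8) and 1 to 123 in mutants with stage. At E12.5 the lowest counts were 186, 240 and 221, without control replicate 1, control replicate 2 and mutant replicate 1. At E11.5, 0 genes were left (edgeR) without control replicate 1 or 3 or mutant replicate 1 or 2, and 8 without control replicate 2. In controls with stage, 266, 1407 and 185 genes were called without E11.5 replicates 1, 2 and 3, and 45 and 98 without E12.5 replicates 1 and 2. In mutants with stage, 123 were called without E11.5 replicate 3, and 10, 1 and 10 without E12.5 replicates 1, 2 and 3. For the difference, the 10 genes came without E11.5 mutant replicate 3. For the difference between stages, leaving out libraries turned the sign of values near 0, with ranges of -0.0949 to 0.65 for *Prph*, -0.33 to 0.23 for *Tubb3*, -0.25 to 0.68 for *Stmn2* and -0.34 to 0.23 for *Elavl4*. For *Sncb* that range was 0.18 to 1.84. With sex in the model the difference was -0.0885 for *Tubb3* and 0.12 for *Elavl4*. In controls with stage, *Stmn2* ran from -0.65 to 0.29. It stood at 0.0672 with sex in the model, where it rests on E12.5 control replicate 3 alone. In mutants with stage, the ranges were -0.15 to 0.39 for *Prph*, -0.70 to 0.59 for *Sncb*, -0.23 to 0.22 for *Stmn2*, -0.27 to 0.0231 for *Th* and -0.10 to 0.48 for *Elavl4*. The median correlation of the 28 pairs ran from -0.0575 to 0.15 without single libraries, and was -0.00016 with a pseudocount of 0.1. No pair passed the test under either other pseudocount.

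Same-numbered libraries did not deviate together in every pair (correlations of deviations from -0.116 to 0.414), so the replicate numbers were not taken to pair the samples. With the replicate number as a block, 96 genes were called at E11.5 (2 of the 8, *Prph* with adjusted p = 0.0319 and *Stmn2* with 0.0343, edgeR) and 26 in mutants with stage, and the median correlation of the 28 pairs was -0.0349. At E12.5 the block gave 445 genes and in controls with stage 755.

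Depth limited *Chrna3* and *Dbh* most, with at most 4 and 11 reads in any library, and *Th* at E12.5. Strand was not known, and the number of hearts per library was not stated.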
